A study of Mus musculus with 7 samples.

Results

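The 4 Notch receptors of the mouse, Notch1 to Notch4, their ligands Dll1, Dll3, Dll4, Jag1 and Jag2, and the target gene Hes1 were followed across 7 RNA sequencing libraries from mouse bowel and fat, 6 of neural crest-derived cells and 1 of cells without the crest label. The 10 genes were chosen by name and found by their Entrez identifiers among 27179 rows of the deposited table. All of them reached 1 CPM in at least 1 library, a unit that gives reads relative to all reads of the library that fell on genes. The study set crest-derived cells of subcutaneous fat beside those of the small bowel, fresh and grown as neurospheres, which are free-floating balls of dividing progenitors and their progeny. All mice carried Wnt1-Cre with the R26R-tdT reporter (Wnt1-tdT), so that Cre made under the Wnt1 promoter marks neural crest cells and their descendants with red tdTomato for sorting.

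Adipose neurospheres came from a 10-day mixed culture of digested fat, a sort for tdTomato, and 10 further days. Fresh adipose cells were sorted directly from the posterior subcutaneous fat pads. Bowel M2 neurospheres took the same route in 2 stages from the muscle and myenteric plexus layer of the small bowel. Bowel M1 neurospheres were sorted first and then grown for 10 days. The tdTomato-positive spheroid cells were sorted from 10-day mixed bowel spheroids (neurosphere-like bodies, NLB), with no culture after the sort. Fresh bowel cells were sorted directly from the same layer, and the tdTomato-negative spheroid cells were the unlabelled cells of such mixed bowel spheroids, likewise from Wnt1-tdT mice. Every library was 1 pool of 3 mice aged 1 month, 2 female and 1 male, with about 50000 cells. Cultured cells were kept with fibroblast and epidermal growth factors at 20 ng/mL each.

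Notch receptors are membrane proteins that are cut when a ligand on a neighbouring cell pulls on them. The freed intracellular part enters the nucleus and, with the DNA-binding protein Rbpj, switches on repressors of the Hes and Hey families. Those repressors hold back genes that drive cells towards a neuronal fate. In the developing gut, Notch signalling is known to keep crest-derived progenitors from turning into neurons too early, and in peripheral nerve it takes part in Schwann cell development.

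Reads on genes numbered 51885106 to 65301500 per library, and 3 reads correspond to between 0.0459 and 0.0578 CPM. Each group had 1 library, so no difference has a replicate check, and intervals cover counting error only. A gene is termed measured where at least 1 of the 2 libraries compared reached 1 CPM. It is called higher or lower where the ratio of reads scaled by TMM (a scaling that assumes most genes do not change) reached 4-fold and its 95% counting interval lay wholly beyond 2-fold. Levels in CPM and the overlaps of their intervals are given without that scaling, and an overlap may not hold after it. The summed level of 8 neural crest markers lay between 586 and 2321 CPM in the 6 tdTomato-positive libraries and was 71.6 CPM in the tdTomato-negative one. In these bulk samples, fewer cells of a type and less RNA per cell cannot be told apart. Both fresh libraries also held markers of other cell types, and the values of some lists are given beside the genes they move with. Fibroblast markers summed to 12104 CPM in fresh adipose and 5383 CPM in fresh bowel cells, and lymphocyte markers to 360 and 30.3 CPM. Mesothelial markers summed to 0.406 CPM in fresh adipose and 1280 CPM in fresh bowel cells, and epithelial markers to 60.4 and 129 CPM. Fresh bowel cells held 6 pancreatic acinar markers at a summed 38666 CPM, against 1.79 to 3.97 CPM in the other 6 libraries.

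Notch1 was highest in cultured crest cells, and Notch2 in the unlabelled cells of the mixed spheroids. Notch1 (Entrez 18128; chromosome 2, 26457902 to 26503822, GRCm38) had 104 CPM in adipose neurospheres, 28.1 in fresh adipose cells, 172 in bowel M2 neurospheres, 200.3 in bowel M1 neurospheres, 292 in tdTomato-positive spheroid cells, 15.4 in fresh bowel cells and 16.5 in tdTomato-negative spheroid cells. The 4 cultured tdTomato-positive libraries lay above the other 3, and fresh bowel cells and tdTomato-negative cells had overlapping counting intervals at the bottom. Notch2 (Entrez 18129; chromosome 3, 98013538 to 98150367) had 21.7 CPM in adipose neurospheres, 12.8 in fresh adipose cells, 38.4 in bowel M2 neurospheres, 117 in bowel M1 neurospheres, 58.0 in tdTomato-positive spheroid cells, 14.0 in fresh bowel cells and 241 in tdTomato-negative spheroid cells. The tdTomato-negative cells stood highest, followed by M1 neurospheres, and the fresh libraries overlapped at the lower end.

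Notch3, which is best known from the mural cells of blood vessels (Entrez 18131; chromosome 17, 32120820 to 32166896), was scarce. It had 2.00 CPM in adipose neurospheres, 7.34 in fresh adipose cells, 1.47 in bowel M2 neurospheres, 4.76 in bowel M1 neurospheres, 1.35 in tdTomato-positive spheroid cells, 2.34 in fresh bowel cells and 13.8 in tdTomato-negative spheroid cells. The tdTomato-negative cells and fresh adipose cells were the highest, and the intervals of fresh bowel cells, adipose neurospheres, M2 neurospheres and tdTomato-positive spheroid cells overlapped from each neighbour to the next. Notch4, known mainly from endothelium (Entrez 18132; chromosome 17, 34564286 to 34588543), had 13.6 CPM in adipose neurospheres, 4.97 in fresh adipose cells, 1.23 in bowel M2 neurospheres, 11.6 in bowel M1 neurospheres, 9.16 in tdTomato-positive spheroid cells, 3.76 in fresh bowel cells and 14.9 in tdTomato-negative spheroid cells. M2 neurospheres were the lowest, while the intervals of tdTomato-negative cells and adipose neurospheres overlapped at the top, with 17.3 and 13.4 CPM after TMM scaling.

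**Figure D1:**
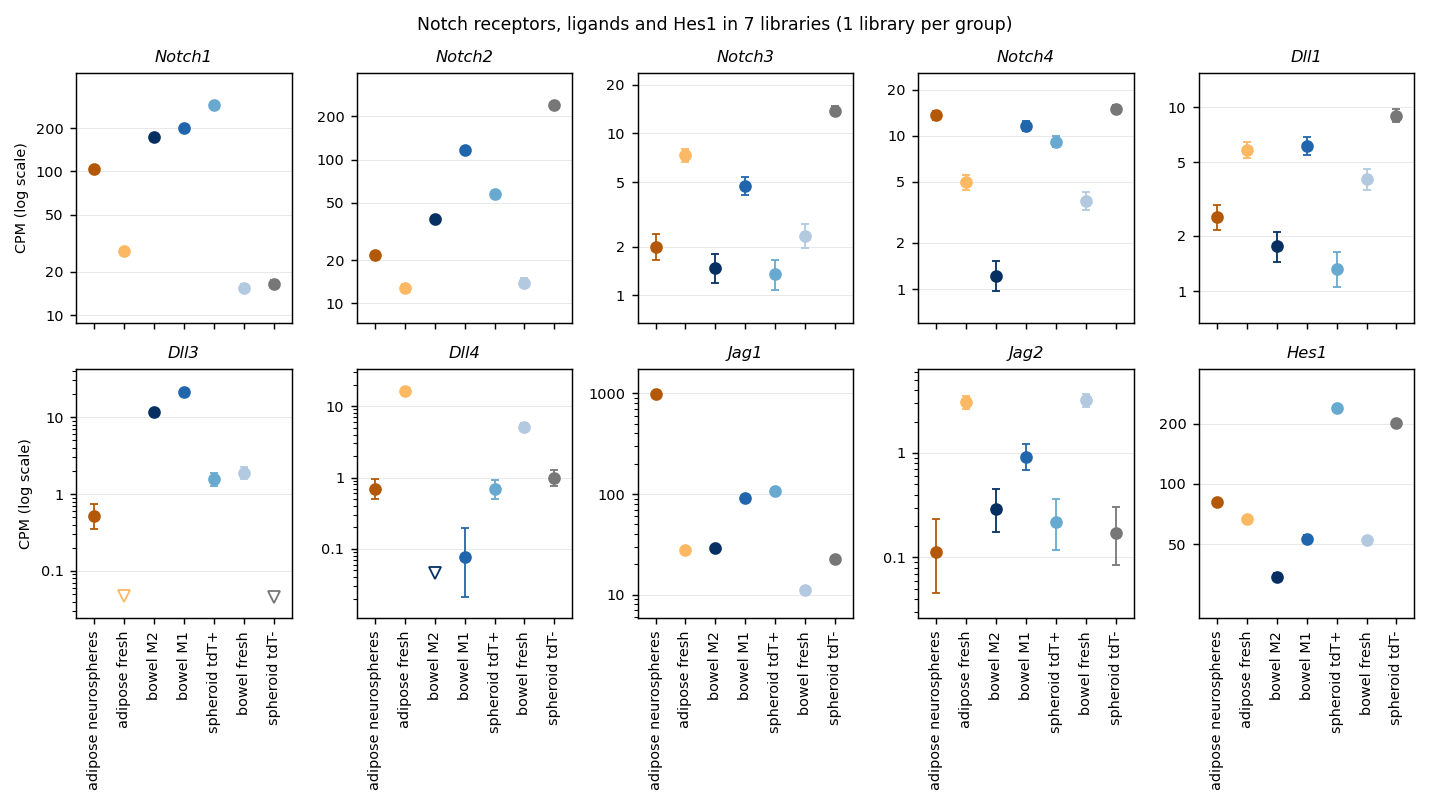
Level of each Notch receptor, ligand and Hes1 in CPM (log scale) in the 7 libraries, 1 library per group. Points are the deposited values with 95% Poisson counting intervals, and open triangles stand at the 3-read floor for libraries with 0 reads. Jag1 stands out in adipose neurospheres at 995 CPM, and Notch1 lies above 100 CPM in the 4 cultured tdTomato-positive libraries.

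Among the ligands, Jag1, a Jagged protein that activates Notch in a neighbour (Entrez 16449; chromosome 2, 137081451 to 137116520), reached the highest CPM of the ligands. It had 995 CPM in adipose neurospheres, 27.5 in fresh adipose cells, 28.9 in bowel M2 neurospheres, 90.5 in bowel M1 neurospheres, 106 in tdTomato-positive spheroid cells, 11.1 in fresh bowel cells and 22.4 in tdTomato-negative spheroid cells. Adipose neurospheres stood far above every other library, M1 neurospheres and tdTomato-positive spheroid cells formed the next level, and M2 neurospheres and fresh adipose cells had overlapping intervals. Jag2, the other Jagged ligand (Entrez 16450; chromosome 12, 112907803 to 112929812), was low throughout, with 0.114 CPM in adipose neurospheres, 3.08 in fresh adipose cells, 0.291, 0.925 and 0.217 in M2 neurospheres, M1 neurospheres and tdTomato-positive spheroid cells, 3.19 in fresh bowel cells and 0.170 in tdTomato-negative cells. The fresh libraries were the highest and did not differ beyond counting error.

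Dll3, a divergent Delta protein that stays inside the cell and inhibits Notch in the cell that makes it (Entrez 13389; chromosome 7, 28293555 to 28301785), was a transcript of bowel neurospheres. It had 0.519 CPM in adipose neurospheres, 0 in fresh adipose cells, 11.8 in bowel M2 neurospheres, 21.1 in bowel M1 neurospheres, 1.56 in tdTomato-positive spheroid cells, 1.89 in fresh bowel cells and 0 in tdTomato-negative spheroid cells. The value of 0 stands for 0 reads in fresh adipose and in tdTomato-negative cells, where 3 reads would be 0.0469 and 0.0464 CPM. M1 and M2 neurospheres were far above the rest, and fresh bowel and tdTomato-positive spheroid cells overlapped.

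The Dll3 promoter window of RefSeq (GRCm38.p6, chr7:28301736-28302035, minus strand, 250 bases before to 50 after the start) is shown because Dll3 set the bowel neurospheres apart from the other libraries. Capitals mark the E-box letters CAGCTG, a sequence read the same on both strands and bound by some basic helix-loop-helix proteins.
Dll3: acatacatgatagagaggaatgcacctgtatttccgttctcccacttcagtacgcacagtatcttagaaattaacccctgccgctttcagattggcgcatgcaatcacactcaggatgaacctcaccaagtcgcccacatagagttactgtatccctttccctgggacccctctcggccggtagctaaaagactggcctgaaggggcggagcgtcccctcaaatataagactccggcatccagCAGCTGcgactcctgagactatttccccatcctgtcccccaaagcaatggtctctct
The 1 match begins at position -7 from the start. The same letters occur in 16.3% of all 32851 promoter windows of the table, so the match is a description and not a binding site.

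Dll1, a Delta ligand of neural progenitors (Entrez 13388; chromosome 17, 15367354 to 15376932), had 2.52 CPM in adipose neurospheres, 5.84 in fresh adipose cells, 1.75 in bowel M2 neurospheres, 6.13 in bowel M1 neurospheres, 1.32 in tdTomato-positive spheroid cells, 4.06 in fresh bowel cells and 9.0 in tdTomato-negative spheroid cells. The tdTomato-negative cells were the highest, M1 neurospheres and fresh adipose cells overlapped, and so did M2 neurospheres and tdTomato-positive spheroid cells at the bottom. After TMM scaling M1 neurospheres and fresh adipose cells had 4.94 and 6.38 CPM of Dll1. Dll4, the Delta ligand of sprouting vessels (Entrez 54485; chromosome 2, 119325784 to 119335666), was a transcript of fresh cells. It had 0.698 CPM in adipose neurospheres and 16.1 in fresh adipose cells, and 0, 0.0771 and 0.681 CPM in M2 neurospheres, M1 neurospheres and tdTomato-positive spheroid cells, against 5.11 CPM in fresh bowel cells. The tdTomato-negative cells had 0.990 CPM. M2 neurospheres had 0 reads, and the 5 cultured libraries all lay below both fresh ones.

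Hes1, the repressor that is a direct target of Notch (Entrez 15205; chromosome 16, 30065357 to 30067796), was highest in both populations sorted from mixed spheroids. It had 80.8 CPM in adipose neurospheres, 67.1 in fresh adipose cells, 34.4 in bowel M2 neurospheres, 53.3 in bowel M1 neurospheres, 239.9 in tdTomato-positive spheroid cells, 52.6 in fresh bowel cells and 201 in tdTomato-negative spheroid cells. The spheroid populations stood above the other 5 libraries, and M2 neurospheres were the lowest. M1 neurospheres and fresh bowel cells had overlapping intervals in CPM, but their log2 ratio after scaling was -0.44 (interval -0.52 to -0.37).

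The sort of mixed bowel spheroids asks which transcripts part crest cells from the other cells of the same bodies. Of the 8 members measured there, Notch1, Dll3 and Jag1 were higher in tdTomato-positive cells and Notch2, Notch3 and Dll1 lower. Across the transcriptome 19.1% of all measured genes passed, 6.64% higher and 12.5% lower. The median log2 ratio was -0.46 over the measured members and 0.01 over all measured genes. Notch1 had 292 CPM in tdTomato-positive and 16.5 CPM in tdTomato-negative cells (log2 ratio 3.90, 95% counting interval 3.81 to 3.99). Notch2 went the other way with 58.0 against 241 CPM (log2 ratio -2.29, interval -2.35 to -2.24). Notch3 (log2 ratio -3.57, interval -3.94 to -3.28) and Dll1 (log2 ratio -2.98, interval -3.36 to -2.69) were lower too.

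Dll3 had 101 reads in tdTomato-positive cells and 0 in tdTomato-negative cells, which makes it at least 28.5-fold higher from a floor of 3 reads in that library. It was measured only through the positive library. Jag1 lay at the edge of the size rule (log2 ratio 2.00, interval 1.92 to 2.09) and did not pass it with DESeq2 size factors. Hes1 had 239.9 CPM in tdTomato-positive and 201 CPM in tdTomato-negative cells, a log2 ratio of 0.01 (interval -0.02 to 0.05). The 8 fibroblast markers summed to 4811 CPM in tdTomato-positive and 46803 CPM in tdTomato-negative cells, and the 10 mural and smooth muscle markers to 390.0 and 1006 CPM. Fn1 alone made up 4266 and 22972 CPM of the fibroblast sums, while Cspg4, a mural marker, was higher in tdTomato-positive cells (255 against 154 CPM). By marker, 8 of 8 fibroblast and 7 of 10 mural markers were called lower, with median log2 ratios of -5.88 and -3.91. Of all measured genes 12.5% were lower. The part of these cell types in the Notch2, Notch3 and Dll1 values was not tested.

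**Figure D2:**
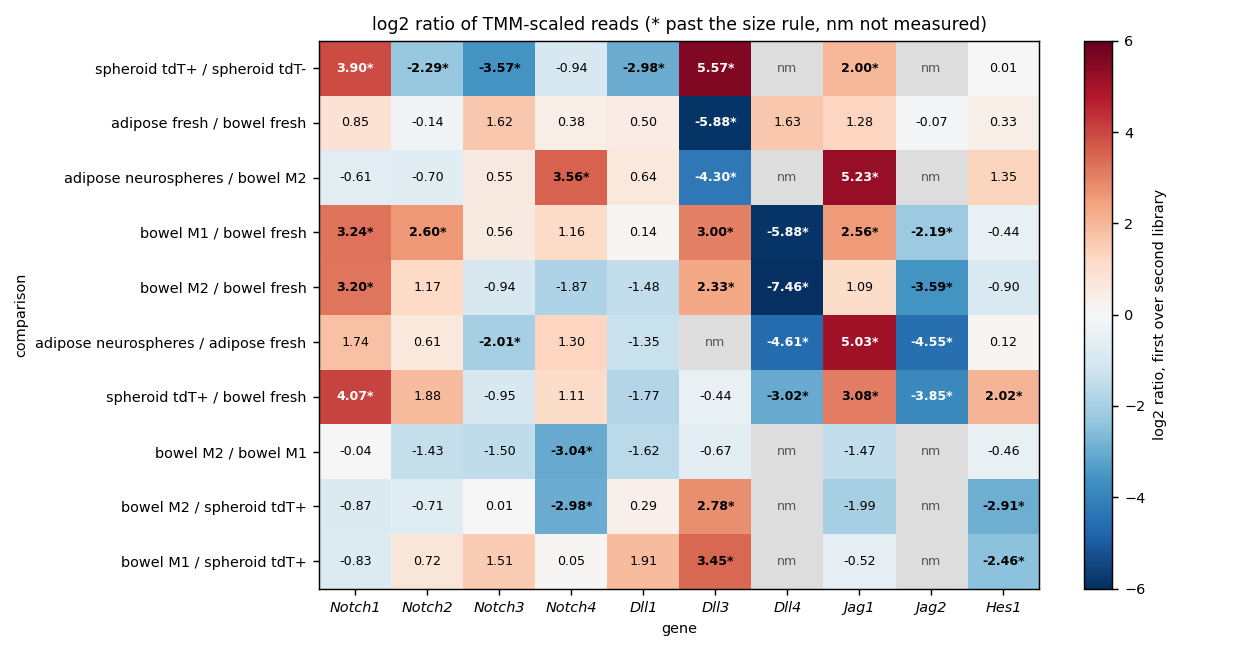
Log2 ratios of TMM-scaled reads for the 10 genes (columns) in the 10 comparisons (rows), first-named library over the second, with an asterisk where the size rule was passed and nm where neither library reached 1 CPM. Notch1 is positive in the 4 rows that set a cultured crest library against fresh cells and in the row of the sort, and Dll4 and Jag2 are negative in all 4 rows against fresh cells.

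Tissue of origin was compared in fresh cells and again after culture. In fresh cells, adipose against bowel, 1 of 10 members passed, Dll3, which was lower. Across the transcriptome 18.5% of all measured genes passed, 7.09% higher and 11.4% lower. Median log2 ratios were 0.44 over the measured members and 0.09 over all measured genes. For Dll3, 0 reads were found in adipose cells against 109 in bowel cells, which makes it at least 40.9-fold lower from the 3-read floor in the adipose library. It counted as measured only through the bowel library. Dll4 had 16.1 CPM in adipose and 5.11 CPM in bowel cells (log2 ratio 1.63, interval 1.45 to 1.83), and Notch3 had 7.34 and 2.34 CPM (log2 ratio 1.62, interval 1.35 to 1.92). Neither passed the 4-fold rule. The 10 endothelial markers summed to 338 CPM in adipose and 287 CPM in bowel cells, and the 10 mural and smooth muscle markers to 450.1 and 18646 CPM. The markers within that list differed in direction, with Acta2 at 169 CPM in adipose and 7415 CPM in bowel cells but Pdgfrb at 41.5 and 17.0 CPM and Cspg4 at 71.3 and 22.6 CPM. Of 8 lymphocyte markers 7 were called higher in adipose cells and 0 lower, and of 5 mesothelial markers 5 were called lower. Of 8 fibroblast markers 3 were called higher and 0 lower, with a median log2 ratio of -0.92. The part of any of these cell types in the Notch3, Dll4 and Dll3 values was not tested.

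After culture, in adipose neurospheres against bowel M2 neurospheres, Jag1 and Notch4 were higher in adipose and Dll3 lower, 3 of 8 measured members. Across the transcriptome 14.0% of all measured genes passed, 5.33% higher and 8.71% lower. The median log2 ratio was 0.59 over the measured members and -0.01 over all measured genes. Jag1 had 995 CPM in adipose and 28.9 CPM in M2 neurospheres, 37.4-fold higher after scaling (log2 ratio 5.23, interval 5.16 to 5.30). Notch4 had 13.6 and 1.23 CPM (log2 ratio 3.56, interval 3.26 to 3.94). The library chosen for bowel bears on Notch4, since M1 neurospheres had 11.6 CPM, close to the adipose level. For Jag1, M1 neurospheres had 90.5 CPM, also far below adipose neurospheres. Dll3 had 0.519 CPM in adipose and 11.8 CPM in M2 neurospheres (log2 ratio -4.30, interval -4.94 to -3.87). The 10 endothelial markers summed to 2.99 CPM in adipose and 24.2 CPM in M2 neurospheres, with Erg at 0 reads in both. Kdr alone made up 0.130 and 21.5 CPM of these sums, and Esam had 1.28 and 0.168 CPM, so 1 marker was called in each direction. Of 8 measured mural and smooth muscle markers 5 were called higher in adipose neurospheres and 0 lower, and of 8 fibroblast markers 2 were higher and 0 lower. Glia markers had 5 of 7 measured called lower and 0 higher. Of 8 neuron markers 4 were lower and 1 higher. The part of any of these cell types in the Notch4, Jag1 and Dll3 values was not tested.

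Culture was compared with the fresh cells of the same tissue in 4 pairs, of which the 3 bowel pairs share the fresh bowel library. The 8 neural crest markers summed to 586 CPM in fresh bowel and 711 CPM in fresh adipose cells. In M1 neurospheres, M2 neurospheres and tdTomato-positive spheroid cells they summed to 2321, 2234 and 2180 CPM. Their median log2 ratios against fresh bowel cells were 2.42, 2.35 and 2.90. Adipose neurospheres had a sum of 1606 CPM and a median of 0.73. The part of the crest cell share in the member ratios was not tested. In bowel M1 neurospheres Notch1, Notch2, Dll3 and Jag1 were higher and Dll4 and Jag2 lower, 6 of 10 members. Across the transcriptome 22.9% of all measured genes passed, 6.58% higher and 16.3% lower. Median log2 ratios were 0.86 over the measured members and -0.07 over all measured genes. Notch1 had 200.3 CPM in M1 neurospheres and 15.4 CPM in fresh cells (log2 ratio 3.24, interval 3.15 to 3.34). Notch2 (log2 ratio 2.60, interval 2.50 to 2.71), Jag1 (log2 ratio 2.56, interval 2.45 to 2.69) and Dll3 (log2 ratio 3.0, interval 2.74 to 3.32) were higher as well. Dll4 had 4 reads in M1 neurospheres (log2 ratio -5.88, interval -8.40 to -5.14). Jag2 (log2 ratio -2.19, interval -2.73 to -1.78) did not pass under scaling by total reads.

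In M2 neurospheres against fresh bowel, Notch1 (log2 ratio 3.20, interval 3.10 to 3.30) and Dll3 (log2 ratio 2.33, interval 2.06 to 2.66) were higher and Dll4 and Jag2 lower, 4 of 10. Across the transcriptome 26.9% of all measured genes passed, 5.89% higher and 21.0% lower. The median log2 ratio was -0.92 over the measured members and -0.07 over all measured genes. Dll4 had 0 reads in M2 neurospheres and 295 in fresh cells, at least 136-fold lower from the floor of 3 reads in the M2 library. Jag1 had 28.9 CPM in M2 neurospheres and 11.1 CPM in fresh cells and did not pass (log2 ratio 1.09, interval 0.96 to 1.22). In tdTomato-positive spheroid cells against fresh bowel, Notch1 (log2 ratio 4.07, interval 3.98 to 4.17), Jag1 (log2 ratio 3.08, interval 2.97 to 3.20) and Hes1 (log2 ratio 2.02, interval 1.96 to 2.07) were higher and Dll4 and Jag2 lower, 5 of 10. Across the transcriptome 27.0% of all measured genes passed, 6.57% higher and 20.4% lower. The median log2 ratio was 0.33 over the measured members and -0.03 over all measured genes. Hes1 did not pass there with DESeq2 size factors.

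In adipose neurospheres against fresh adipose cells, Jag1 was higher and Notch3, Dll4 and Jag2 lower, 4 of 9 measured members. Across the transcriptome 26.5% of all measured genes passed, 5.71% higher and 20.8% lower. Median log2 ratios were 0.12 over the measured members and -0.01 over all measured genes. Jag1 had 995 CPM in neurospheres and 27.5 CPM in fresh cells, 32.6-fold higher after scaling (log2 ratio 5.03, interval 4.96 to 5.10). Notch1 had 104 and 28.1 CPM and did not reach 4-fold (log2 ratio 1.74, interval 1.66 to 1.81). Notch3 (log2 ratio -2.01, interval -2.32 to -1.73) lay at the edge of the rule and did not pass under scaling by total reads. The log2 ratio of Jag1 in culture was 3.94 larger in adipose tissue than in bowel with M2 neurospheres, a difference of single libraries that has no test.

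Dll4 and Jag2 were highest in the fresh libraries, as were the summed endothelial markers. Among the 5 cultured libraries, where both genes were under 1 CPM, neither kept the order of those sums. That order rests in part on Kdr, which made up 21.5 of 24.2 CPM in M2 and 19.5 of 33.2 CPM in M1 neurospheres. Dll4 was -4.61 (interval -5.15 to -4.23) in adipose neurospheres and -3.02 (interval -3.57 to -2.62) in tdTomato-positive spheroid cells against fresh cells on the log2 scale, and Jag2 was -4.55 (interval -6.24 to -3.83) and -3.85 (interval -4.95 to -3.27). The 10 endothelial markers summed to 2.99 CPM in adipose neurospheres and 338 CPM in fresh adipose cells. In bowel they summed to 24.2, 33.2 and 10.2 CPM in M2 neurospheres, M1 neurospheres and tdTomato-positive spheroid cells, against 287 CPM in fresh cells. Cdh5 was at 0 reads in M2 and M1 neurospheres and Tie1 at 0 reads in M2 neurospheres. Of these 10 markers 1 reached 1 CPM in adipose neurospheres and 9 in fresh adipose cells, and 2, 4 and 4 did in the same 3 bowel cultures, against 9 in fresh bowel cells. The 10 myeloid markers summed to 15.4 CPM in adipose neurospheres and 2317 CPM in fresh adipose cells. In bowel they summed to 13.5, 152 and 15.8 CPM in M2 neurospheres, M1 neurospheres and tdTomato-positive spheroid cells, against 1398 CPM in fresh cells. Ccr7 alone made up 1473 CPM of the fresh adipose sum and 1.39 CPM of the fresh bowel sum, so those 2 sums rest on different genes. Kdr differed from the other endothelial markers, with 21.5 CPM in M2 and 19.5 CPM in M1 neurospheres, against 18.6 CPM in fresh bowel cells. The tdTomato-negative cells had an endothelial sum of 54.2 CPM. Jag2 was under 1 CPM in every cultured library, and Dll4 was too, so both counted as measured in these comparisons only through the fresh cells, where they are high. The part of either cell type in the Dll4 and Jag2 values was not tested.

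**Figure D3:**
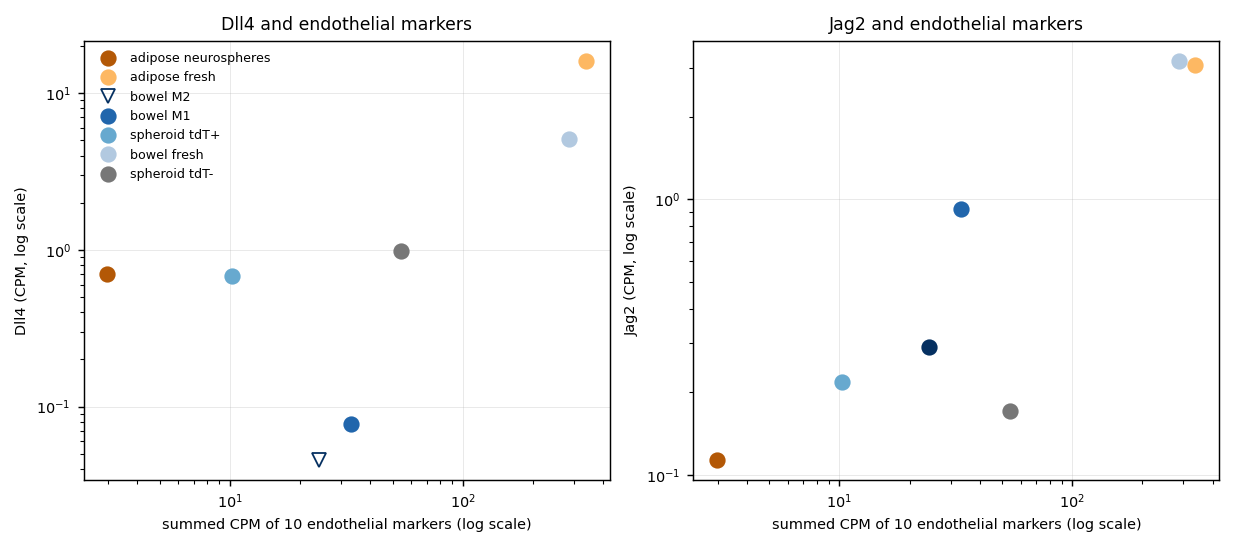
Dll4 (left) and Jag2 (right) against the summed level of 10 endothelial markers, all in CPM on log scales, 1 point per library, with an open triangle at the 3-read floor for 0 reads of the gene on the vertical axis. Both fresh libraries hold the highest values of Dll4, Jag2 and the endothelial sum.

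The bowel culture methods were compared with each other. In M2 against M1 neurospheres Notch4 was the 1 member that passed, lower with 1.23 against 11.6 CPM (log2 ratio -3.04, interval -3.42 to -2.73), 1 of 8 measured. Across the transcriptome 8.57% of all measured genes passed, 1.20% higher and 7.37% lower. Median log2 ratios were -1.45 over the measured members and -0.08 over all measured genes. Notch1 had 172 CPM in M2 and 200.3 CPM in M1 neurospheres, a log2 ratio of -0.04 after scaling. Notch2 (-1.43), Notch3 (-1.50), Dll1 (-1.62) and Jag1 (-1.47) had negative log2 ratios, lower in M2 neurospheres, without passing the rule. Markers of other cell types were lower in M2 neurospheres too, with 6 of 8 fibroblast, 5 of 10 mural and smooth muscle, 6 of 8 measured myeloid and 5 of 5 mesothelial markers called. Mesothelial markers summed to 0.260 CPM in M2 and 75.3 CPM in M1 neurospheres, myeloid markers to 13.5 and 152 CPM, and fibroblast markers to 752 and 1893 CPM. Of the fibroblast sums Fn1 alone made up 581 CPM in M2 and 427 CPM in M1 neurospheres, the opposite direction. Of 5 measured endothelial markers, 1 was called higher and 3 lower, with sums of 24.2 and 33.2 CPM. The part of these cells in the member values was not tested.

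Hes1 and Dll3 parted the bowel neurospheres from the tdTomato-positive cells just sorted out of mixed spheroids. In M2 neurospheres against tdTomato-positive spheroid cells, Dll3 was higher (log2 ratio 2.78, interval 2.50 to 3.11) and Hes1 (log2 ratio -2.91, interval -2.98 to -2.85) and Notch4 (log2 ratio -2.98, interval -3.37 to -2.68) lower, 3 of 8 measured. Across the transcriptome 6.94% of all measured genes passed, 3.07% higher and 3.86% lower. The median log2 ratio was -0.79 over the measured members and -0.02 over all measured genes. Jag1 had 28.9 CPM in M2 neurospheres and 106 CPM in spheroid cells and stood just outside the rule (log2 ratio -1.99, interval -2.07 to -1.92). In M1 neurospheres against the same spheroid cells, both taken after 10 days of culture, Dll3 was higher (log2 ratio 3.45, interval 3.18 to 3.78) and Hes1 lower (log2 ratio -2.46, interval -2.52 to -2.40), 2 of 8. Across the transcriptome 12.2% of all measured genes passed, 9.10% higher and 3.14% lower. Median log2 ratios were 0.39 over the measured members and -0.03 over all measured genes. Both comparisons share the spheroid library. In M1 neurospheres 5 of 5 mesothelial, 4 of 10 mural and smooth muscle and 5 of 8 neuron markers were called higher than in spheroid cells. Of the neuron markers 1 was lower, and of 9 measured myeloid markers 6 were higher and 1 lower. In M2 neurospheres 2 of 8 neuron markers were higher and 6 of 8 fibroblast markers lower. The part of these cells in the Dll3, Hes1 and Notch4 values was not tested. M1 neurospheres grew for 10 days after the sort, and M2 neurospheres for 10 days before it and 10 days after. The spheroid cells grew for 10 days before the sort, among other cells. The sort, the days since it, the total days of culture and the presence of other cells therefore cannot be told apart.

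Set against gene length, the receptor and ligand mixtures of the libraries differed. CPM were divided by the length of all annotated exons in GENCODE M21, which is 14.2, 10.8, 8.09 and 8.06 kb for Notch1 to Notch4. Notch1 held 64.9% of the receptor level per kb in adipose neurospheres and 42.1% in fresh adipose cells. It held 75.7%, 52.3% and 75.4% in M2 neurospheres, M1 neurospheres and tdTomato-positive spheroid cells, against 34.5% in fresh bowel cells. There Notch2 held the larger share, 41.3%. In tdTomato-negative cells Notch2 held 82.5% and Notch1 4.30%. The summed receptor level was 27.2 CPM per kb in tdTomato-positive and 27.0 CPM per kb in tdTomato-negative cells. These sums are without TMM scaling, whose factors were 1.02 and 0.860 in these libraries, so they do not show equal levels.

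Of the ligand level per kb, Jag1 held 99.4% in adipose neurospheres and 44.0% in fresh adipose cells, where Dll4 held 39.0%. In the bowel Jag1 held 51.9% in M2 neurospheres, 63.3% in M1 neurospheres and 94.5% in tdTomato-positive spheroid cells, against 35.9% in fresh cells. Dll3 held 43.3% in M2 and 30.2% in M1 neurospheres, its highest shares. Adipose neurospheres had the highest ligand sum at 172 CPM per kb, against 9.53 CPM per kb in M2 neurospheres. These shares join genes of different length and have no counting interval.

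**Figure D4:**
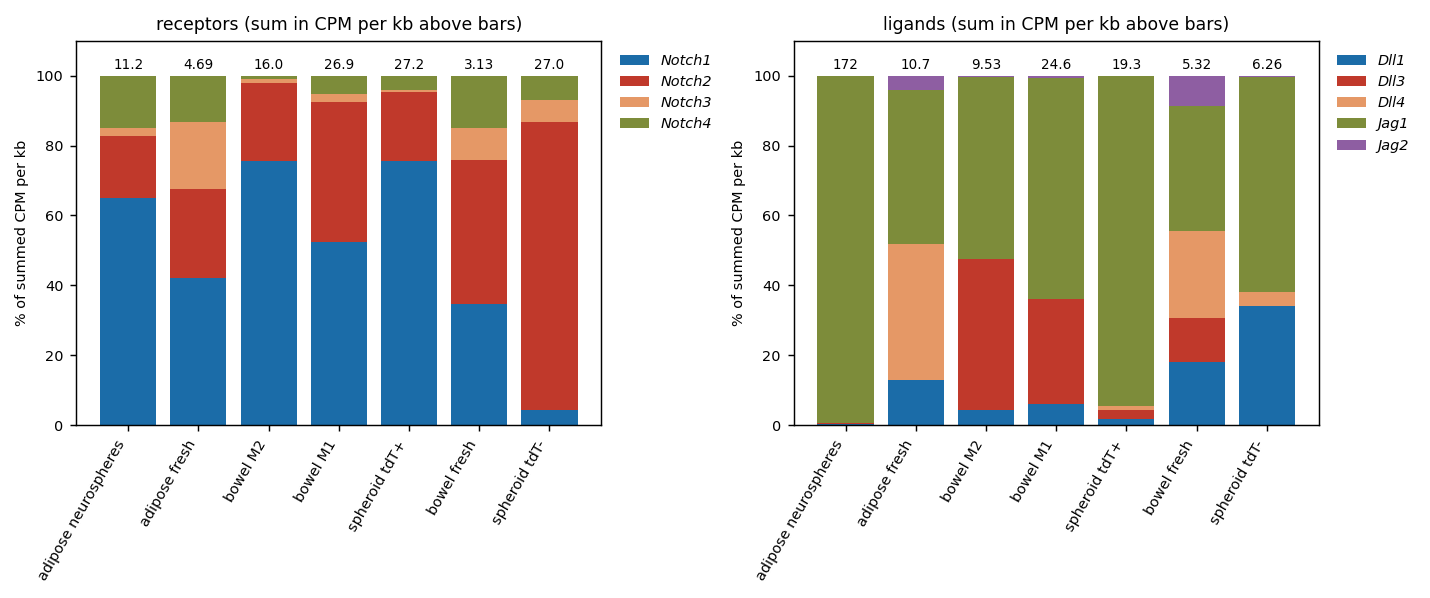
Share of the summed level per kb of exon held by each receptor (left) and each ligand (right) in the 7 libraries, in percent, with the sum in CPM per kb above each bar. Notch1 leads in the 4 cultured tdTomato-positive libraries and in fresh adipose cells, and Notch2 in tdTomato-negative and fresh bowel cells. Jag1 takes 99.4% of the ligands in adipose neurospheres.

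The other genes of the pathway were described by lists, which cover targets and Hes relatives, the nuclear complex, cleavage, glycosylation, ligand endocytosis and modulators. Heyl, a Hey-family repressor known as a Notch target, had a Pearson r of 0.93 with Notch1 (log2 levels over 7 libraries, a description, since these share tissue or culture route). It had 177 CPM in adipose neurospheres, 37.3 in fresh adipose cells, 192 in bowel M2 neurospheres, 311 in bowel M1 neurospheres, 303 in tdTomato-positive spheroid cells, 45.9 in fresh bowel cells and 13.9 in tdTomato-negative spheroid cells. The 4 cultured tdTomato-positive libraries were again above the rest. Against tdTomato-negative cells, tdTomato-positive spheroid cells were higher in Heyl (log2 ratio 4.2, interval 4.11 to 4.30) and Hes5 (log2 ratio 4.55, interval 3.57 to 8.52) and lower in Dtx1 (log2 ratio -3.94, interval -6.08 to -3.15). These were 3 of 7 measured target and Hes-family genes, where 19.1% of all measured genes passed. The list median was 1.07 beside 0.01 over all measured genes. Hes5 was low even where it was highest, at 1.61 CPM in tdTomato-positive cells.

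Hey1, Hey2 and Nrarp, further Notch targets, had values above those of tdTomato-negative cells in tdTomato-positive spheroid cells as Heyl did, but with ratios short of the rule, and they were ordered differently across the other libraries. Their Pearson r with Notch1 was -0.26, 0.13 and -0.43, and that of Hes1 was -0.11, unlike the 0.93 of Heyl. Hey1 had 9.25 CPM in adipose neurospheres, 19.0 in fresh adipose cells, 8.19 in bowel M2 neurospheres, 16.7 in bowel M1 neurospheres, 7.15 in tdTomato-positive spheroid cells, 26.6 in fresh bowel cells and 2.88 in tdTomato-negative spheroid cells, with fresh bowel cells at the top. Nrarp, a feedback inhibitor of Notch, was lower in adipose neurospheres (3.77 against 16.1 CPM in fresh adipose cells, log2 ratio -2.23, interval -2.45 to -2.03). It was also lower in M2 neurospheres (1.67 against 9.0 CPM in fresh bowel cells, log2 ratio -2.69, interval -3.03 to -2.42). Nrarp and Dll4 had a Pearson r of 0.87 over the 7 libraries, and the fresh libraries were the highest in both. Among target and Hes-family genes, 1 of 6 measured passed in M1 neurospheres against fresh bowel (Heyl, higher) and 2 of 6 in M2 neurospheres (Nrarp and Dtx1, lower), where 22.9% and 26.9% of all measured genes passed. In tdTomato-positive spheroid cells against fresh bowel 4 of 7 passed (Hes5 and Heyl higher, Hey1 and Dtx1 lower), where 27.0% of all measured genes did, with a list median of -1.54 beside -0.03. In adipose neurospheres against fresh adipose cells 1 of 5 was higher (Heyl) and 2 lower (Nrarp and Dtx1), where 26.5% of all measured genes passed. The list median was -1.18 beside -0.01 over all measured genes.

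Hey2, another Hey repressor, divided the tissues. In fresh cells it had 0.843 CPM in adipose and 11.6 CPM in bowel (log2 ratio -3.75, interval -4.23 to -3.40). After culture it had 2 reads in adipose neurospheres and 7.99 CPM in M2 neurospheres (log2 ratio -6.88, interval -10.87 to -5.96). Its promoter window is shown as that of a Notch target whose level differed between tissues (RefSeq, GRCm38.p6, chr10:30842734-30843033, minus strand). Capitals mark GTGGGAA and its reverse complement TTCCCAC, core letters bound by Rbpj.
Hey2: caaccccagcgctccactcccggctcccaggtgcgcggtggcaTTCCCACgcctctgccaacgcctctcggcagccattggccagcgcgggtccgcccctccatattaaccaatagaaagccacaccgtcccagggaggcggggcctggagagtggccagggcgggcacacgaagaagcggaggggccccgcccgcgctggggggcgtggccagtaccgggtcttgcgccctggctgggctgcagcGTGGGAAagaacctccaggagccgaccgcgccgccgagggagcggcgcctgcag
The matches begin at positions -207 and -4 from the start. On either strand these letters occur in 6.38% of all promoter windows and in 0 of the 10 windows that the table holds for the Notch receptors and ligands, which says only that the letters are not in those windows.

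**Figure D5:**
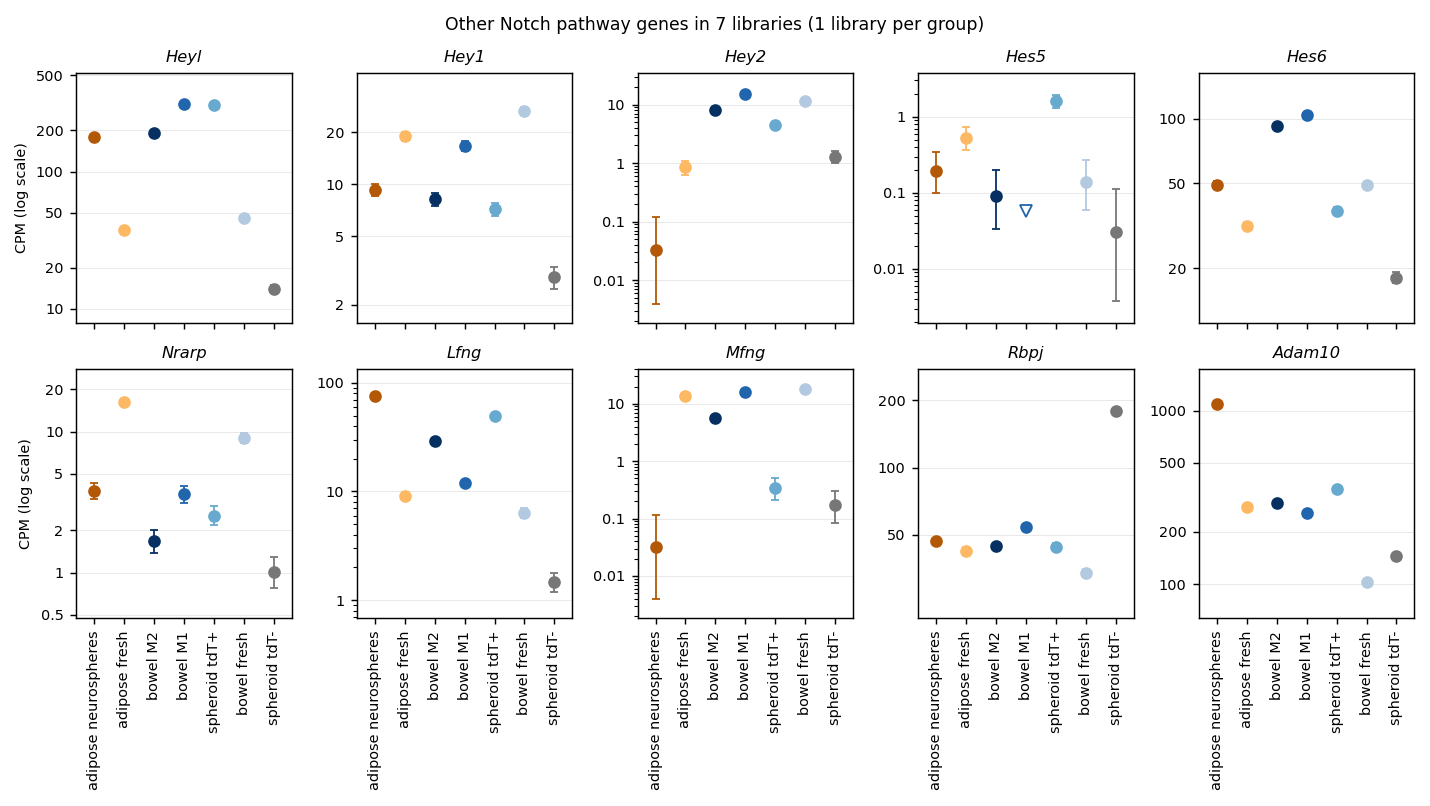
Levels in CPM (log scale) of 10 other Notch pathway genes in the 7 libraries, with 95% Poisson counting intervals and an open triangle at the 3-read floor for 0 reads. Heyl is highest in the 4 cultured tdTomato-positive libraries, Rbpj in tdTomato-negative cells at 179 CPM, and Hey2 and Mfng have 2 reads each in adipose neurospheres.

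The Fringe enzymes, which add sugars to Notch and shift its response between Delta and Jagged ligands, were unequal between libraries. Lfng had 76.3 CPM in adipose neurospheres, 9.09 in fresh adipose cells, 29.1 in bowel M2 neurospheres, 11.9 in bowel M1 neurospheres, 49.8 in tdTomato-positive spheroid cells, 6.38 in fresh bowel cells and 1.45 in tdTomato-negative spheroid cells. It was higher in tdTomato-positive than in tdTomato-negative spheroid cells (log2 ratio 4.83, interval 4.56 to 5.17) and in adipose neurospheres than in fresh adipose cells (log2 ratio 2.92, interval 2.80 to 3.05). Mfng had 0.0325 CPM in adipose neurospheres, 13.7 in fresh adipose cells, 5.74 in bowel M2 neurospheres, 16.2 in bowel M1 neurospheres, 0.340 in tdTomato-positive spheroid cells, 18.0 in fresh bowel cells and 0.170 in tdTomato-negative spheroid cells. It was lower in adipose neurospheres than in fresh adipose cells (log2 ratio -7.85, interval -11.92 to -7.01) and in tdTomato-positive spheroid cells than in fresh bowel cells (log2 ratio -5.76, interval -6.58 to -5.29), and it was higher in M1 neurospheres than in tdTomato-positive spheroid cells (log2 ratio 5.16, interval 4.68 to 5.97). Lfng was lower in that last comparison (log2 ratio -2.35, interval -2.48 to -2.23).

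Across the 10 comparisons the 3 lists of core machinery were measured whole. The 11 nuclear complex genes had 0 to 2 calls, the 10 cleavage genes 0 to 2 and the 6 ligand endocytosis genes 0 to 3, where between 6.94% and 27.0% of all measured genes passed. The modulators had the most, 3 higher and 5 lower of 14 measured in adipose against M2 neurospheres and 6 lower of 14 in adipose neurospheres against fresh adipose cells, where 14.0% and 26.5% of all measured genes passed. In adipose against M2 neurospheres Cntn1 (log2 ratio -5.41, interval -6.20 to -4.92) and Dner (log2 ratio -4.01, interval -4.83 to -3.49), both neuronal membrane proteins that can bind Notch, were lower.

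In the nuclear complex, Rbpj, the DNA-binding partner of cut Notch, was the 1 of 11 genes that passed in the spheroid sort. It had 44.2 CPM in tdTomato-positive and 179 CPM in tdTomato-negative cells (log2 ratio -2.26, interval -2.32 to -2.20). The co-repressor Tle3 (log2 ratio 3.55, interval 3.42 to 3.70) and the co-activator Ep300 (log2 ratio 2.09, interval 2.00 to 2.19) were higher in tdTomato-positive spheroid cells than in fresh bowel cells. None of the 11 passed in fresh adipose against fresh bowel cells or in M2 against M1 neurospheres, where 18.5% and 8.57% of all measured genes passed. Of the 10 cleavage genes, 0 passed in the spheroid sort, where 19.1% of all measured genes passed, and 1 in adipose against M2 neurospheres, where 14.0% did. That gene was Adam10, the protease that makes the first cut in a ligand-bound receptor, with 1098 CPM in adipose and 293 CPM in M2 neurospheres (log2 ratio 2.03, interval 2.00 to 2.05), a call that was lost with DESeq2 size factors and with scaling by total reads. Adam10 and Jag1 were both at their highest in adipose neurospheres (Pearson r 0.92 over the 7 libraries).

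Ligand endocytosis genes, which let a ligand pull on its receptor, had 0 of 6 past the rule in the spheroid sort, where 19.1% of all measured genes passed. In M2 neurospheres against fresh bowel cells, Mib1 (log2 ratio 2.17, interval 2.01 to 2.33) and Epn1 (log2 ratio 2.35, interval 2.16 to 2.57) were higher and Neurl1a lower (log2 ratio -3.09, interval -3.26 to -2.94). Of all measured genes 26.9% passed there. Among the modulators, the neuronal Notch ligand Dner had 0.328 CPM in fresh adipose and 111 CPM in fresh bowel cells (log2 ratio -8.28, interval -9.12 to -7.81). The 8 neuron markers summed to 95.8 CPM in fresh adipose and 1743 CPM in fresh bowel cells, and their part in the Dner value was not tested. Dlk1, a Delta-like protein of mesenchymal progenitors, had 1.70 CPM in tdTomato-positive and 67 CPM in tdTomato-negative spheroid cells (log2 ratio -5.51, interval -5.83 to -5.27).

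The genes most like each member over the 7 libraries were ranked by Pearson r of log2 levels among genes that reached 5 CPM in a library. With 7 libraries many genes reach a high r, so the names are a description. Notch1 was nearest to Cdk5rap2 (0.984), Pde8a (0.982) and Myo16 (0.980), and Notch2 to Obsl1 (0.991), Pip5k1c (0.990) and Tmem131 (0.981). Notch3 was nearest to Csgalnact1 (0.986), Fut4 (0.979) and Sele (0.975), and Notch4 to Hsf1 (0.981), Amdhd2 (0.969) and Adamts6 (0.957). For the Delta ligands, the nearest were Rhpn1 (0.986), Ggt5 (0.971) and F2rl3 (0.968) for Dll1, Fdps (0.982), Zfp286 (0.979) and Ptgds (0.977) for Dll3 and Slc22a18 (0.987), Fndc7 (0.984) and Anxa3 (0.983) for Dll4. Jag1 was nearest to Ash2l (0.984), Ppm1g (0.972) and Ddx31 (0.967), and Hes1 to Eogt (0.980), Pdia3 (0.942) and Desi1 (0.938). Among the members themselves Notch3 and Dll1 were the most alike (r 0.95), both with their highest value in tdTomato-negative cells and their lowest in tdTomato-positive spheroid cells. Jag2 stayed under 5 CPM and was not ranked.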

How the data were processed

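For each library and Entrez gene the authors deposited CPM, which are read counts relative to all reads on genes. The tools were bcl2fastq 2.17, HISAT and featureCounts with mm10, per the submitters' processing notes; not given in the sources used here are strand use, annotation, settings and further versions. SMART-Seq v4 cDNA and Nextera XT libraries were made, per the labels' protocols, with no molecular identifiers named, so reads are not independent molecules.

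Dividing by the value of 1 read recovered whole reads (100% of values whole within 0.05 read). Groups had 1 library each, so no count test could be run on them and no gene is called by one, and no p-value or standard error is given. TMM factors (edgeR 4.0.16, R 4.3.3) used 16461 genes at 1 CPM in a library. Log2 ratios had a prior count of 2, which understates low genes; intervals are exact conditional binomial (ratios) and exact Poisson (levels). Symbols and coordinates came from RefSeq GRCm38, the assembly behind mm10 (25275 of 27179 identifiers matched), exon lengths from GENCODE M21. Notch1 to Notch4, Dll1, Dll4 and Jag2 overlap other annotated genes, so their counts are uncertain to that extent. Promoter windows were found for 9 of 10 members. Of 154 list genes 154 were found.

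The members and lists were chosen with earlier results of these data known. Named genes were the members, up to 3 called genes per list and comparison, undetected markers, and the 3 genes most like each member at 5 CPM or more (log2 of TMM-scaled CPM plus 0.5). Hes6 in a figure, Pdgfrb, Cspg4, Kdr, Esam, Acta2, Fn1 and Ccr7 were chosen after their values were seen. So were the gene pairs with a correlation and the promoters shown. The steps were tested on simulated reads. Alternatives were scaling by total reads or DESeq2 1.42.0 size factors, no filter or 5 CPM, a prior count of 0.5 and a 2-fold rule. Other steps ran in pandas 2.3.3 and scipy 1.17.1 under Python 3.11.15, with numpy 2.4.6, and figures in matplotlib 3.10.9. No library was left out. Some genes are not reported here.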

Additional observations from a re-analysis of the deposited data

Results flagged for a closer look

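In 3 genes the direction of a difference was opposite in the tissues or stages compared, each time with both counting intervals on their own side of equality; none of these differences was tested. Notch4 was at 1.30 on the log2 scale in adipose neurospheres against fresh adipose cells and at -1.87 in bowel M2 neurospheres against fresh bowel cells, 3.17 apart. With M1 neurospheres the bowel ratio was 1.16. Hes1 was at 0.12 in the adipose pair and -0.90 in the bowel M2 pair, 1.02 apart. The bowel direction turned with the culture, as Hes1 was at -0.44 with M1 neurospheres and, called higher, at 2.02 with tdTomato-positive spheroid cells. Notch1, adipose over bowel, was at -0.61 in neurospheres and 0.85 in fresh cells, a difference of -1.46. None of the ratios behind these 3 differences passed the 4-fold rule.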

How the results depend on the processing

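No member's called ratio turned its sign under any of the 6 alternatives (scaling, filter, prior count and fold rule). Scaling by total reads ended the calls of Jag2 in M1 neurospheres against fresh bowel (-1.75) and Notch3 in adipose neurospheres against fresh adipose (-1.86), and it added Notch2 in tdTomato-positive spheroid cells against fresh bowel (2.05) and Dll1 in M1 against tdTomato-positive spheroid cells (2.19). DESeq2 size factors ended the calls of Jag1 in the spheroid sort (1.98) and Hes1 in tdTomato-positive spheroid cells against fresh bowel (1.97). Values of Hes1 near 0, none called, changed sign in the spheroid sort with DESeq2 (-0.01) and in M1 against fresh bowel with total reads (0.02). A prior count of 0.5 changed no member's call. With total reads the median ratio over all measured genes in M1 against fresh bowel was 0.38, beside -0.07 with TMM, the largest such shift, and the calls there split into 1711 higher and 2116 lower, beside 1015 and 2521. In the other 9 comparisons the median moved to between -0.25 and 0.26 with total reads, and the split moved by under 10 percentage points.

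Under the 2-fold rule 4671 of 13951 measured genes were called in the spheroid sort and 5591 of 15585 in fresh adipose against fresh bowel. There were 4091 of 13440 in adipose against M2 neurospheres and 7103 of 15422 in M1 against fresh bowel. M2 against fresh bowel had 7427 of 15189, and adipose neurospheres against fresh adipose 6917 of 14773. For tdTomato-positive spheroid cells against fresh bowel it was 7128 of 15232, with 3248 of 14141 in M2 against M1. Against tdTomato-positive spheroid cells it was 2651 of 13432 in M2 and 3599 of 14245 in M1. Members called were 4 of 10 measured in fresh adipose against fresh bowel and 8 of 10 in M2 against fresh bowel. They were 7 of 9 in adipose neurospheres against fresh adipose and 8 of 10 in tdTomato-positive spheroid cells against fresh bowel. In M2 against M1 they were 5 of 8, and in M1 against tdTomato-positive spheroid cells 4 of 8. At 5 CPM the number of genes called was 1909 in fresh adipose against fresh bowel, 1217 in adipose against M2 neurospheres, 617 in M2 against M1, 514 in M2 against tdTomato-positive spheroid cells, 1062 in M1 against tdTomato-positive spheroid cells, and 0 members passed in fresh adipose against fresh bowel, since Dll3 was no longer measured there; Dll3 in the spheroid sort, Jag2, Hes5 and Dtx1 were not measured at 5 CPM either. With no filter it was 4354 in fresh adipose against fresh bowel, 1929 in M2 against M1, 1632 in M2 against tdTomato-positive spheroid cells, and Dll4 was then called in adipose against M2 neurospheres, in M2 and in M1 against tdTomato-positive spheroid cells, and Dll3 in adipose neurospheres against fresh adipose. Depth limits Dll3, Dll4 and Jag2, which had under 50 reads in 3, 4 and 5 libraries. No paired analysis was possible because each group has 1 library.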
